A study of Rattus norvegicus with 2 samples.

Results

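The G1 cyclins Ccnd1, Ccnd2, Ccnd3, Ccne1 and Ccne2, their partner kinases Cdk2, Cdk4 and Cdk6, the pocket protein Rbl1 and the transcription factor E2f1 were followed in rat cortical neural stem cells exposed to ZD7288 or to vehicle. They were taken as 10 gene symbols looked up in the deposited gene table, and 9 of the 10 were found among its 25399 genes. E2f1 had no row under its symbol and is not analysed here. The rule names the symbols and uses no measured value, though earlier results of these data were known when it was written.

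Per the labels, the cells (Rattus norvegicus) came from Sprague-Dawley rat embryo cortex (E14.5), bought as isolated cells, and were grown with FGF2, which holds neural stem cells undifferentiated. The ZD7288 group had 30 µM ZD7288 for 48 h in medium with 0.2% DMSO, all of it renewed after 24 h; the compound blocks HCN channels, the pore proteins of the hyperpolarisation-activated current. The vehicle group had 0.2% DMSO alone over the same 48 h with the same renewal, and FGF2 was present in both. Each group was 1 sample and 1 droplet library (10x Chromium 3′ kit, version 2), so treatment cannot be told apart from sample or library. The treated sample's label has the spelling ZD2788, where title and protocol have ZD7288, the spelling kept here. Droplet libraries count unique molecular identifiers (UMIs), tags that let amplified copies of 1 captured RNA be counted once. Levels are UMIs per 1000000 UMIs of a library (CPM), with exact 95% Poisson intervals. Ratios are ZD7288 over vehicle unless stated, with exact 95% Clopper-Pearson intervals. All intervals cover counting error only, and a single library per group allowed neither a test nor a replicate check.

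Cells leave G1 and start DNA synthesis after cyclin-dependent kinases phosphorylate the retinoblastoma family of pocket proteins. D-type cyclins, made in response to growth factors, activate Cdk4 and Cdk6. Phosphorylated pocket proteins release E2F factors, which drive genes for DNA replication and for the E-type cyclins, and cyclin E with Cdk2 then carries the cell into S phase. In the developing cortex D-type cyclins set how fast and how long neural progenitors divide, and Ccnd2 transcripts are known from the basal endfeet of mouse radial glia.

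The ZD7288 library kept 3135 cells and 73681950 UMIs, at medians per cell of 23001 UMIs and 4024 genes. The vehicle library kept 732 cells and 15611454 UMIs, at medians per cell of 17119 UMIs and 3392 genes. Cells under 5000 UMIs made up 9.47% of ZD7288 cells and 3.01% of vehicle cells. The libraries shared 3 cell barcode sequences. Of 9 neural stem cell markers, 6 reached 20 CPM in the ZD7288 library and 7 in the vehicle library, and their summed level was 7493 CPM in the ZD7288 library and 7565 CPM in the vehicle library. Summed markers of oligodendrocyte precursors stood at 1166 CPM in the ZD7288 library and 2128 CPM in the vehicle library. The highest of these genes alone gave 896.1 CPM in the ZD7288 library and 1687 CPM in the vehicle library. Neuron markers summed to 82.7 CPM in the ZD7288 library and 103.4 CPM in the vehicle library. Those of astrocytes summed to 46.5 CPM in the ZD7288 library and 33.6 CPM in the vehicle library. In each library 2 of 5 precursor genes, 1 of 6 neuron genes and 1 of 5 astrocyte genes reached 20 CPM. Mural cell or fibroblast markers summed to 5.82 CPM in the ZD7288 library, and to 0.128 CPM in the vehicle library, where 4 of the 5 genes were at 0. Intermediate progenitor, microglial, endothelial and red blood cell markers summed to at most 0.0641 CPM in either library. Whether cells of these other types were present, and their part in the values below, was not tested.

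The start regions of 4 members are shown: Ccne1 and Cdk2, whose levels moved together over the S phase score, Cdk4, whose level varied little, and Rbl1, which holds the E2F site found among the members. Each runs 5′ to 3′ from 250 bases before to 50 after the gene's start as annotated by RefSeq on assembly GRCr8. Capitals mark GC boxes (GGGCGG), E-boxes (CACGTG) and E2F sites (TTTGGCGC, TTTGCCGC, TTTCGCGC or TTTCCCGC), each read on either strand. Ccne1 lies at chr1:99927860-99928159 on the minus strand, Cdk2 at chr7:1721829-1722128 on the minus strand, Cdk4 at chr7:64771203-64771502 on the plus strand and Rbl1 at chr3:166289327-166289626 on the minus strand.
Ccne1: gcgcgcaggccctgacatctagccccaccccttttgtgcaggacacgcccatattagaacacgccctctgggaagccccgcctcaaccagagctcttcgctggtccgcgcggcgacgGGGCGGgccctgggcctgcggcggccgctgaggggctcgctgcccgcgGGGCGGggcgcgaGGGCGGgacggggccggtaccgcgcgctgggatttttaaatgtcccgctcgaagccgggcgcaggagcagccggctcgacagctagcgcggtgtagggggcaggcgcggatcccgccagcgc
Cdk2: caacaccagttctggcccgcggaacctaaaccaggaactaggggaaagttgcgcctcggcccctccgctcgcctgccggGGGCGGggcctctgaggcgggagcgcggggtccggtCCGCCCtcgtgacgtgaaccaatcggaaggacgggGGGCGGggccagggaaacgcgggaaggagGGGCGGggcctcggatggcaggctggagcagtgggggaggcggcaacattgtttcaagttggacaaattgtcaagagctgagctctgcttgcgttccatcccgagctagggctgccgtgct
Cdk4: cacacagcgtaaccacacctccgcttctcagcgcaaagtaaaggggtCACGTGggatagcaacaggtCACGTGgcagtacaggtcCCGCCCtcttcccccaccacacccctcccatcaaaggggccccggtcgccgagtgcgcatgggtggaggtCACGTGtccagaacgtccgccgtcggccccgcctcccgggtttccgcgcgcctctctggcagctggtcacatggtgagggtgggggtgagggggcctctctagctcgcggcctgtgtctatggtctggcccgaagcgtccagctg
Rbl1: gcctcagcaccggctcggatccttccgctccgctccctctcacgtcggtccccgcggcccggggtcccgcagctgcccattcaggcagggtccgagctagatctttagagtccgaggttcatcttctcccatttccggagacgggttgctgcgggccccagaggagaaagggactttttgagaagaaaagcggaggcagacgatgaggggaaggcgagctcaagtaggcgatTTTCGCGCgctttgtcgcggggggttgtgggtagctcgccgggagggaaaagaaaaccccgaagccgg
RefSeq windows were matched for 5 of the 10 members, these 4 and Ccnd3. Ccnd1, Ccnd2, Ccne2, Cdk6 and E2f1 had no matched window. An E2F site stood in 1 of the 5 windows, that of Rbl1, where TTTCGCGC begins 18 bases before the start. The same letters occurred in 2.14% of all 33469 rat windows of this length and in 21 of the 41 windows of the S phase list described below, a list of replication genes many of which are known E2F targets. A GC box stood in 4 of the 5 windows, all but that of Rbl1, against 33.1% of all windows. It was also common in related genes, in 18 of 21 windows of other cyclins and CDKs and in 26 of the 41 of the S phase list. The Cdk4 window held 3 E-boxes, beginning 203, 183 and 95 bases before the start. An E-box stood in 6.42% of all windows, and 3 or more stood in 19 of the 33469. The E-box was searched after the Cdk4 letters had been seen, and none of the matches is evidence of a bound site. Only the exact letters given were searched, so a window without a match may still hold an E2F site of other letters.

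Across the whole libraries, Ccnd2 was the measured member that differed past the size rule of 1.5-fold. It stood at 104.1 CPM in the ZD7288 library and 41.8 CPM in the vehicle library. The other 6 members measured, taken as reaching 20 CPM in the higher library, lay between ratios of 0.792 and 1.02. Cdk6 and Rbl1 stayed under 20 CPM in both libraries. Of the 7 measured members, 1 was higher in the ZD7288 library and 0 were lower, where 10.1% of all 4823 measured genes were higher and 5.20% were lower. The median log2 ratio was -0.05 over the 7 members and 0.09 over all measured genes.

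**Figure D1:**
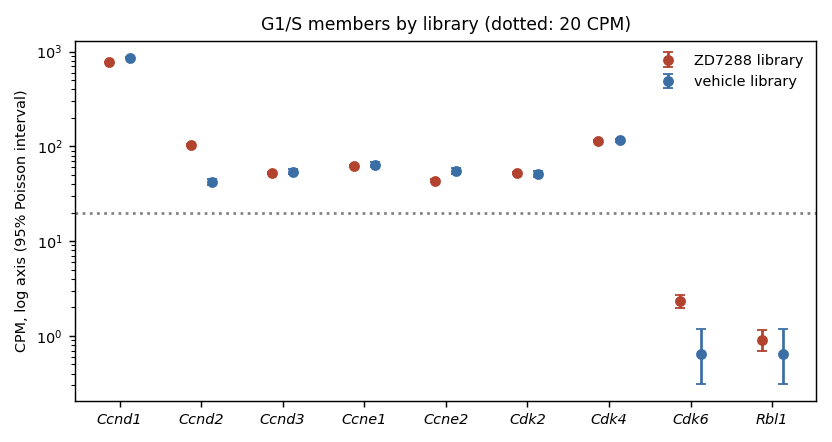
Level of the 9 members in the ZD7288 library (left point of each pair) and the vehicle library (right point), in CPM on a log axis, with 95% Poisson intervals and 1 library per group. Ccnd2 stands at 104.1 CPM in the ZD7288 library and 41.8 CPM in the vehicle library, while Cdk6 and Rbl1 lie under the dotted line at 20 CPM in both.

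Ccnd1, the D-type cyclin most closely tied to growth factor signalling, had 57092 UMIs in the ZD7288 library and 13434 UMIs in the vehicle library. These gave 774.8 CPM (768.5 to 781.2) in the ZD7288 library and 860.5 CPM (846.0 to 875.2) in the vehicle library, a ratio of 0.900 (0.884 to 0.918). The ratio lay under 1 beyond counting error but within the 1.5-fold rule. At 2000 UMIs per cell, a depth to which every cell was thinned so that the libraries could be compared, Ccnd1 was seen in 73.2% (71.5 to 74.8) of ZD7288 cells and 74.3% (71.0 to 77.5) of vehicle cells.

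Ccnd2, the D-type cyclin that neural progenitors of the cortex use beside Ccnd1, had 7670 UMIs in the ZD7288 library and 652 UMIs in the vehicle library. The levels were 104.1 CPM (101.8 to 106.5) in the ZD7288 library and 41.8 CPM (38.6 to 45.1) in the vehicle library, and the ratio was 2.49 (2.30 to 2.70). Its log2 ratio of 1.32 ranked at the 98.2 percentile of all measured genes. At 2000 UMIs per cell, 19.1% (17.7 to 20.5) of ZD7288 cells and 7.73% (5.90 to 9.93) of vehicle cells carried a Ccnd2 UMI. Without thinning the shares were 78.7% of ZD7288 cells and 47.4% of vehicle cells. No thinned cell held more than 3 Ccnd2 UMIs in the ZD7288 library or 2 in the vehicle library. No cell type known to lack these transcripts was identified, so the share of cells with a UMI from free RNA was not measured.

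Ccnd3, the third D-type cyclin, stood at 52.4 CPM (50.7 to 54.0) in the ZD7288 library and 54.2 CPM (50.6 to 58.0) in the vehicle library. The ratio was 0.966 (0.897 to 1.04), an interval that holds 1. After thinning, 8.90% (7.90 to 9.98) of ZD7288 cells and 11.9% (9.61 to 14.46) of vehicle cells carried a Ccnd3 UMI. With every cell thinned to 2000 UMIs, the log2 ratio of Ccnd3 moved to -0.397, from -0.0496 as reported.

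The summed D-type cyclin level was 931.3 CPM in the ZD7288 library and 956.5 CPM in the vehicle library, a ratio of 0.974 (0.957 to 0.991). The makeup of that sum differed more than its size. Ccnd2 gave 11.2% (10.9 to 11.4) of D-type UMIs in the ZD7288 library and 4.37% (4.04 to 4.71) in the vehicle library. Ccnd1 gave 83.2% (82.9 to 83.5) in the ZD7288 library and 90.0% (89.5 to 90.5) in the vehicle library, a difference of -6.77 percentage points (-7.32 to -6.20). Ccnd3 gave 5.62% (5.45 to 5.80) in the ZD7288 library and 5.67% (5.30 to 6.05) in the vehicle library. These are shares of 3′ tags, not divided by transcript length. Ccnd2 was seen about as often in cells with a Ccnd1 UMI as in cells without one. At 2000 UMIs its share was 19.1% of ZD7288 cells with Ccnd1 and 18.9% (16.2 to 21.8) of those without. Among vehicle cells it was 7.62% (5.52 to 10.2) of those with Ccnd1 and 8.06% (4.58 to 12.9) of those without.

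Cdk4, the kinase that D-type cyclins activate in most tissues, stood at 113.8 CPM (111.4 to 116.3) in the ZD7288 library and 115.4 CPM (110.2 to 120.9) in the vehicle library. Its ratio was 0.986 (0.937 to 1.04). Cdk6, the other D-type cyclin kinase, was rarely captured, with 171 UMIs in the ZD7288 library and 10 UMIs in the vehicle library. This gave 2.32 CPM (1.99 to 2.70) in the ZD7288 library and 0.641 CPM (0.307 to 1.18) in the vehicle library. The ratio was 3.62 (1.92 to 7.69), and Cdk6 lies outside the count of measured members. Cdk6 UMIs made up 2.00% (1.71 to 2.32) of the UMIs of both kinases in the ZD7288 library and 0.552% (0.265 to 1.01) in the vehicle library, and the sum of both kinases had a ratio of 1.00 (0.951 to 1.05).

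Ccne1, an E-type cyclin that activates Cdk2 at the start of S phase, stood at 61.7 CPM (59.9 to 63.5) in the ZD7288 library and 64.3 CPM (60.3 to 68.3) in the vehicle library. Its ratio was 0.960 (0.896 to 1.03). Ccne2, the second E-type cyclin, stood at 43.3 CPM (41.8 to 44.8) in the ZD7288 library and 54.6 CPM (51.0 to 58.4) in the vehicle library, and its ratio of 0.792 (0.735 to 0.856) ranked at the 12.8 percentile of all measured genes. After thinning, 7.95% (7.0 to 8.98) of ZD7288 cells and 10.9% (8.73 to 13.4) of vehicle cells carried a Ccne2 UMI. Neither gene passed the 1.5-fold rule. Summed, the E-type cyclins stood at 105.0 CPM in the ZD7288 library and 118.9 CPM in the vehicle library, a ratio of 0.883 (0.839 to 0.929). Ccne2 was seen in 12.9% (9.53 to 16.9) of thinned ZD7288 cells with a Ccne1 UMI and in 7.30% (6.34 to 8.37) of those without. In vehicle cells the shares were 16.5% (9.53 to 25.7) with Ccne1 and 10.1% (7.87 to 12.7) without, and these intervals overlap.

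Cdk2, the kinase of the E-type cyclins, stood at 52.2 CPM (50.5 to 53.9) in the ZD7288 library and 51.1 CPM (47.6 to 54.8) in the vehicle library, with a ratio of 1.02 (0.946 to 1.10). Rbl1, a pocket protein known to be bound by cyclin E and Cdk2, had 66 UMIs in the ZD7288 library and 10 UMIs in the vehicle library. Its levels were 0.896 CPM (0.693 to 1.14) in the ZD7288 library and 0.641 CPM (0.307 to 1.18) in the vehicle library. The ratio of 1.40 (0.715 to 3.05) does not separate the libraries at this depth.

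To follow the members over the cell cycle, cells were divided by their UMIs from a list of 41 S phase genes, counted after thinning to 2000 UMIs. No member is on that list or on the G2/M list. S-rich cells held at least 7 S list UMIs and S-poor cells at most 2, the quartiles of vehicle cells. The S-rich range held 752 of 2956 ZD7288 cells (25.4%, 23.9 to 27.0) and 194 of 724 vehicle cells (26.8%, 23.6 to 30.2). The S-poor range held 931 ZD7288 cells (31.5%, 29.8 to 33.2) and 193 vehicle cells (26.7%, 23.5 to 30.0). S-poor cells were divided again by 49 G2/M genes into G2/M-rich cells with at least 18 such UMIs, G2/M-poor cells with at most 7, and the cells between. Cells poor in both lists made up 16.5% (15.2 to 17.9) of ZD7288 cells and 6.35% (4.69 to 8.38) of vehicle cells. These are ranges of a score and not cell types. Within 1 UMI of the S-poor limit lay 38.4% of ZD7288 cells and 36.3% of vehicle cells. Within the S-poor range the mean S score was 1.24 UMIs in ZD7288 cells and 1.37 UMIs in vehicle cells. In the S-rich range it was 9.38 UMIs in ZD7288 cells and 8.96 UMIs in vehicle cells.

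Within each library the E-type cyclins and Cdk2 were higher in S-rich than in S-poor cells, and the D-type cyclins and Cdk4 stayed within 1.5-fold. In the ZD7288 library 3 of the 7 measured members were higher and 0 lower, against 3.72% of 4734 measured genes higher and 1.33% lower. The same 3 of 7 were higher in the vehicle library and 0 lower, against 3.28% of 4698 genes higher and 2.30% lower. Since the ranges were set by replication genes, the direction for genes known to be induced with them is a description.

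Ccne2 had the widest span. In the ZD7288 library it stood at 97.6 CPM (93.0 to 102.4) in S-rich and 11.7 CPM (10.3 to 13.2) in S-poor cells, a ratio of 8.36 (7.35 to 9.53). In the vehicle library it stood at 99.1 CPM (89.1 to 109.9) in S-rich and 29.3 CPM (24.4 to 34.9) in S-poor cells, a ratio of 3.38 (2.75 to 4.18). Ccne1 followed, with S-rich over S-poor ratios of 3.55 (3.25 to 3.88) in the ZD7288 library and 2.17 (1.82 to 2.59) in the vehicle library. For Cdk2 they were 2.78 (2.54 to 3.05) in the ZD7288 library and 1.97 (1.60 to 2.44) in the vehicle library. The ratio was larger in the ZD7288 library for Ccne2, Ccne1 and Cdk2. How many of all measured genes had such a difference was not counted. With the S list taken as a share of all UMIs of a cell, in place of the thinned count, the libraries came close for Ccne1, at log2 ratios of 2.25 in the ZD7288 library and 2.21 in the vehicle library, and for Cdk2, at 1.73 in the ZD7288 library and 1.70 in the vehicle library. For Ccne2 they were 3.75 in the ZD7288 library and 2.78 in the vehicle library. Over the S list itself, which set the ranges, the median ratio was 3.69 in the ZD7288 library and 2.59 in the vehicle library.

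Ccnd3 had S-rich over S-poor ratios of 1.37 (1.25 to 1.49) in the ZD7288 library and 1.20 (0.988 to 1.45) in the vehicle library. Set against only the S-poor cells rich in G2/M transcripts, its ratio passed 1.5-fold in the ZD7288 library, at 1.580 (1.385 to 1.806). In the vehicle library that ratio was 1.227 (0.9540 to 1.589). The S-rich over S-poor ratios of Cdk4 were 1.12 (1.06 to 1.19) in the ZD7288 library and 1.14 (0.994 to 1.30) in the vehicle library. Ccnd1 lay on the other side of 1, at 0.883 (0.863 to 0.902) in the ZD7288 library and 0.903 (0.860 to 0.948) in the vehicle library. Ccnd2 gave 0.888 (0.835 to 0.945) in the ZD7288 library and 0.943 (0.755 to 1.18) in the vehicle library. Rbl1 had 20 UMIs in S-rich and 12 in S-poor ZD7288 cells, and 4 UMIs in S-rich and 2 in S-poor vehicle cells, too few to order the ranges in the vehicle library.

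**Figure D2:**
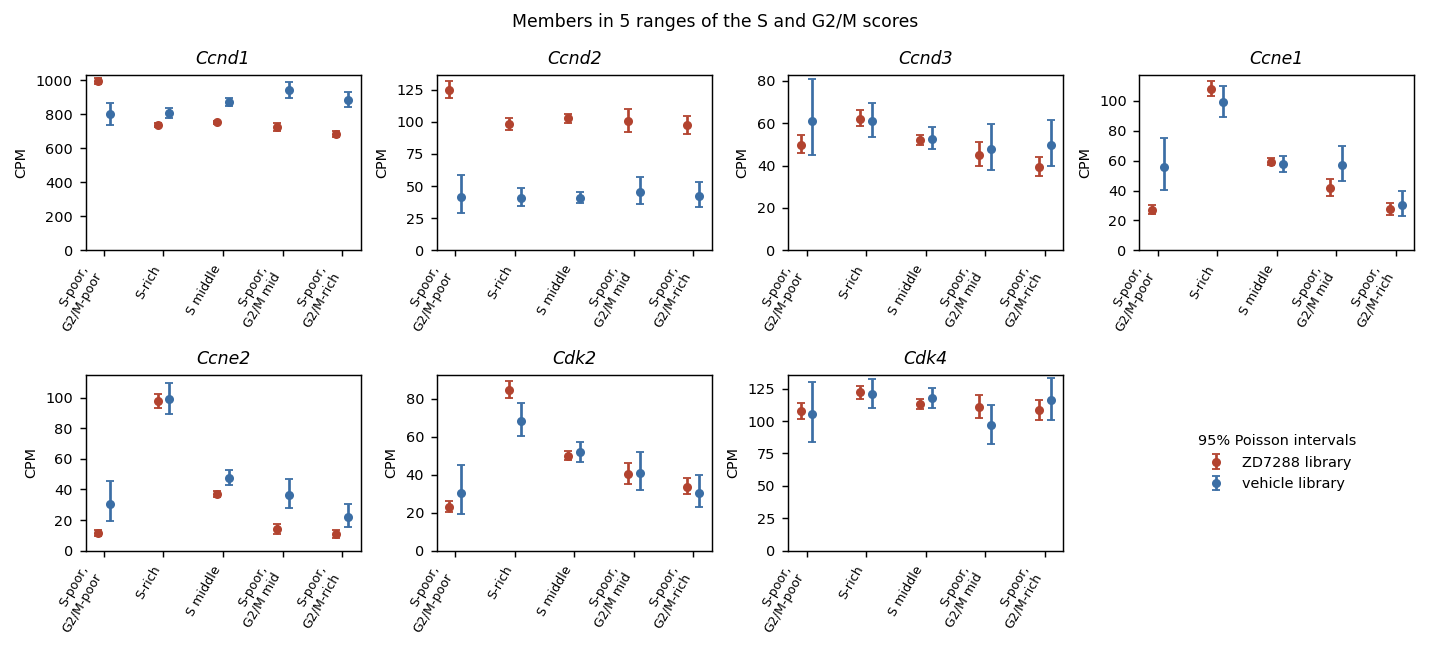
Level in CPM, on linear axes from 0, of the 7 members that reached 20 CPM, in 5 ranges of the S and G2/M scores, for the ZD7288 library (left of each pair) and the vehicle library (right), with 95% Poisson intervals. Ccne1, Ccne2 and Cdk2 peak in S-rich cells of both libraries, Ccnd2 is separated between the libraries in all 5 ranges, and Ccnd1 is highest at 996.0 CPM in ZD7288 cells poor in both lists.

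Ccnd2 was higher in the ZD7288 library in all 5 ranges. The ratio was 2.40 (2.03 to 2.85) in S-rich cells, 2.51 (2.24 to 2.83) in the S middle range and 2.98 (2.11 to 4.35) in cells poor in both lists. It was 2.29 (1.80 to 2.94) in S-poor cells rich in G2/M transcripts and 2.22 (1.74 to 2.86) in those between. In the vehicle library Ccnd2 lay between 40.9 and 45.3 CPM over these ranges, a spread smaller than the interval of each. In the ZD7288 library it was 124.7 CPM (118.1 to 131.6) in cells poor in both lists and between 97.2 and 102.7 CPM in the other 4 ranges. It was the 1 member of 7 that was higher in S-rich cells, in the S middle range and in the S-poor range as a whole. The share of all measured genes that were higher was 7.82% in S-rich cells, 11.8% in the S middle range and 13.1% in S-poor cells.

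**Figure D3:**
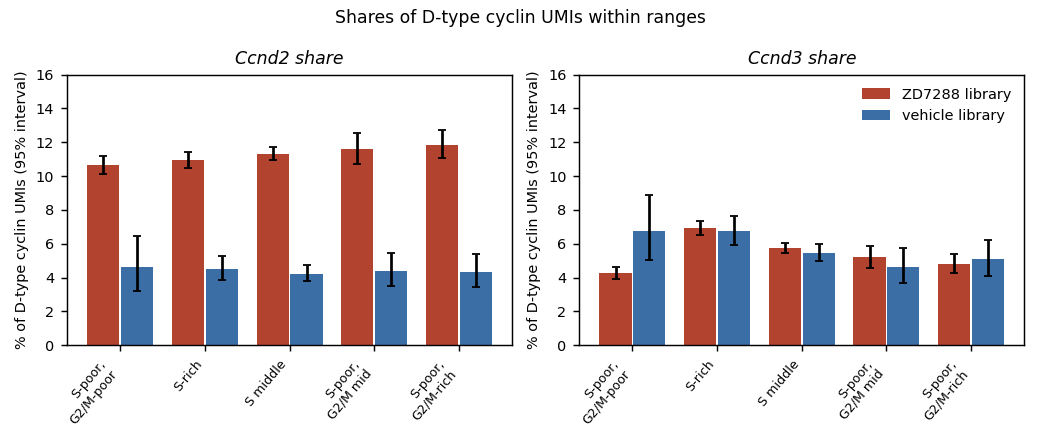
Share of D-type cyclin UMIs that were Ccnd2 (left panel) and Ccnd3 (right panel) in 5 ranges, as bars from 0 in percent with 95% binomial intervals, for the ZD7288 library (left bar of each pair) and the vehicle library (right bar). The Ccnd2 share lies between 10.7% and 11.9% in ZD7288 ranges and between 4.24% and 4.64% in vehicle ranges.

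The Ccnd2 share of the D-type sum kept the libraries apart in every range. Ccnd2 gave between 10.7% and 11.9% of D-type UMIs in the ranges of the ZD7288 library and between 4.24% and 4.64% in those of the vehicle library. For Ccnd3 the share was 6.92% (6.53 to 7.33) in S-rich cells and 4.26% (3.92 to 4.63) in cells poor in both lists in the ZD7288 library. In the vehicle library it was 6.74% (5.91 to 7.66) in S-rich cells and 6.75% (5.02 to 8.85) in cells poor in both lists.

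Ccnd1 lay on opposite sides of a ratio of 1 in different ranges, within the 1.5-fold rule in each. In cells poor in both lists it stood at 996.0 CPM (977.2 to 1015) in the ZD7288 library and 798.3 CPM (737.2 to 863.2) in the vehicle library, a ratio of 1.25 (1.15 to 1.35). In S-poor cells rich in G2/M transcripts it stood at 683.2 CPM (664.3 to 702.5) in the ZD7288 library and 884.9 CPM (841.6 to 929.9) in the vehicle library, a ratio of 0.772 (0.729 to 0.818). Within the ZD7288 library Ccnd1 was thus highest in the cells poor in both lists. Among vehicle ranges the cells poor in both lists and the S-rich cells, at 804.0 CPM (775.1 to 833.7), held the lowest levels and did not differ beyond their intervals. The G2/M-rich over G2/M-poor ratio among S-poor cells was 0.686 (0.663 to 0.710) in the ZD7288 library and 1.11 (1.01 to 1.22) in the vehicle library. For this comparison 0 of the 6 measured members were called in either direction in the ZD7288 library, against 9.10% of genes higher and 3.22% lower. In the vehicle library 1 of 7, Ccne1, was lower in G2/M-rich cells at a ratio of 0.548 (0.361 to 0.836), against 4.50% of genes lower and 13.6% higher. Vehicle cells poor in both lists numbered 46, with a median of 14037 UMIs, and the matching ZD7288 cells 488, with a median of 21500 UMIs.

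**Figure D4:**
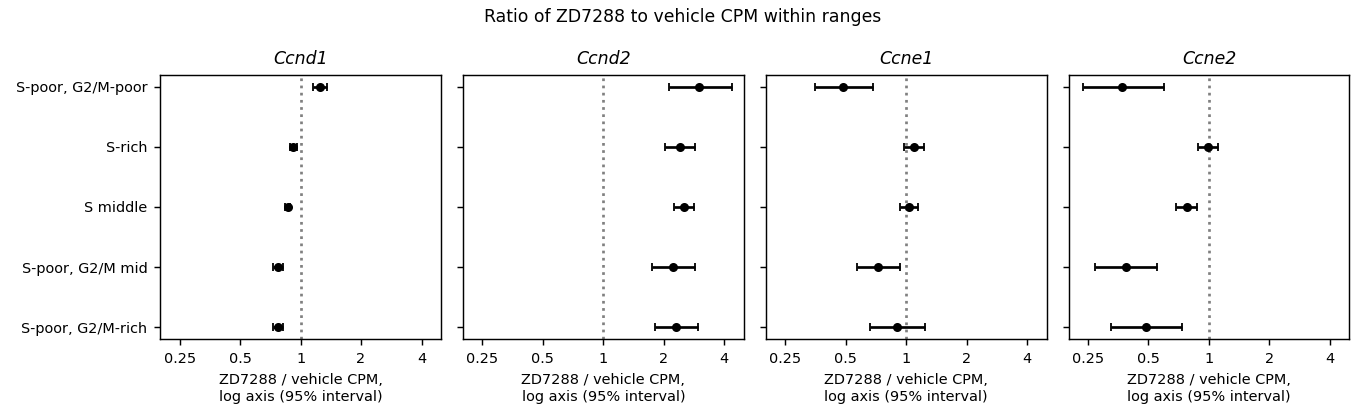
Ratio of ZD7288 to vehicle CPM of Ccnd1, Ccnd2, Ccne1 and Ccne2 in 5 ranges of the S and G2/M scores, on a log axis with 95% intervals and a dotted line at 1. Ccnd2 lies between 2.22 and 2.98 in all 5 ranges, Ccnd1 lies above 1 in cells poor in both lists and below 1 in the other 4, and Ccne2 is near 1 in S-rich cells and at 0.368 in cells poor in both lists.

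Taken over all S-poor cells, the E-type cyclins differed between the libraries past the 1.5-fold rule, and in S-rich cells they did not. In S-rich cells the ratio was 0.985 (0.879 to 1.11) for Ccne2 and 1.09 (0.971 to 1.22) for Ccne1, and 0 of 7 members were lower, against 3.71% of genes. In S-poor cells Ccne2 was lower in the ZD7288 library, at 11.7 CPM against 29.3 CPM in the vehicle library, a ratio of 0.399 (0.321 to 0.497). Ccne1 was lower there at 30.5 CPM (28.2 to 32.8) in the ZD7288 library and 45.8 CPM (39.6 to 52.8) in the vehicle library, a ratio of 0.664 (0.566 to 0.783). These were 2 of 7 members, against 7.86% of genes lower. Ccne2 was lower in each S-poor range, at 0.486 (0.327 to 0.734) in G2/M-rich cells, 0.384 (0.270 to 0.548) in the G2/M middle and 0.368 (0.236 to 0.597) in cells poor in both lists. Ccne1 stayed within 1.5-fold in G2/M-rich cells, at 0.896 (0.660 to 1.23), and in the G2/M middle, at 0.726 (0.569 to 0.932). Cells poor in both lists were 488 of the 931 S-poor ZD7288 cells and 46 of the 193 S-poor vehicle cells. The part of this mix in the Ccne1 ratio over all S-poor cells was not tested. With the score taken at 5000 UMIs per cell, the Ccne2 ratio in G2/M-rich cells was 0.698 (0.418 to 1.22), short of 1.5-fold. With Ccnd2, 2 of 7 members thus passed 1.5-fold in one direction or the other in S-poor and G2/M-rich cells, against 16.3% of all measured genes, and 2 of 7 in the G2/M middle, against 24.6%. In cells poor in both lists Ccne1 passed too, at 0.485 (0.352 to 0.682), which made 3 of 7 members against 33.0% of genes. That Ccne1 value did not hold: it was 0.932 (0.696 to 1.27) with the score at 1000 UMIs per cell, 1.06 (0.630 to 1.91) at 5000 UMIs and 1.53 (0.735 to 3.85) with the S list as a share of all UMIs, settings added after seeing the data. In the S middle range Ccne2 stood at 36.8 CPM in the ZD7288 library and 47.6 CPM in the vehicle library, a ratio of 0.774 (0.688 to 0.872), and 0 of 7 members were lower against 5.74% of genes. Cdk2 as reported stayed within 1.5-fold in every range, at 1.24 (1.08 to 1.42) in S-rich and 0.877 (0.733 to 1.05) in S-poor cells. In cells poor in both lists it was 0.7636 (0.5015 to 1.215), a value that did not hold either. There it was 0.6119 (0.4617 to 0.8242) with ranges at tertiles. With the S list as a share of all UMIs it was 1.595 (0.7229 to 4.388). The S list, which set the ranges, had a median ratio of 1.09 in S-rich and 0.807 in S-poor cells, with 7 of its 30 measured genes lower in S-poor cells. Its part in the Ccne1 and Ccne2 values, and the difference of either ratio between S-rich and S-poor cells, was not tested.

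**Figure D5:**
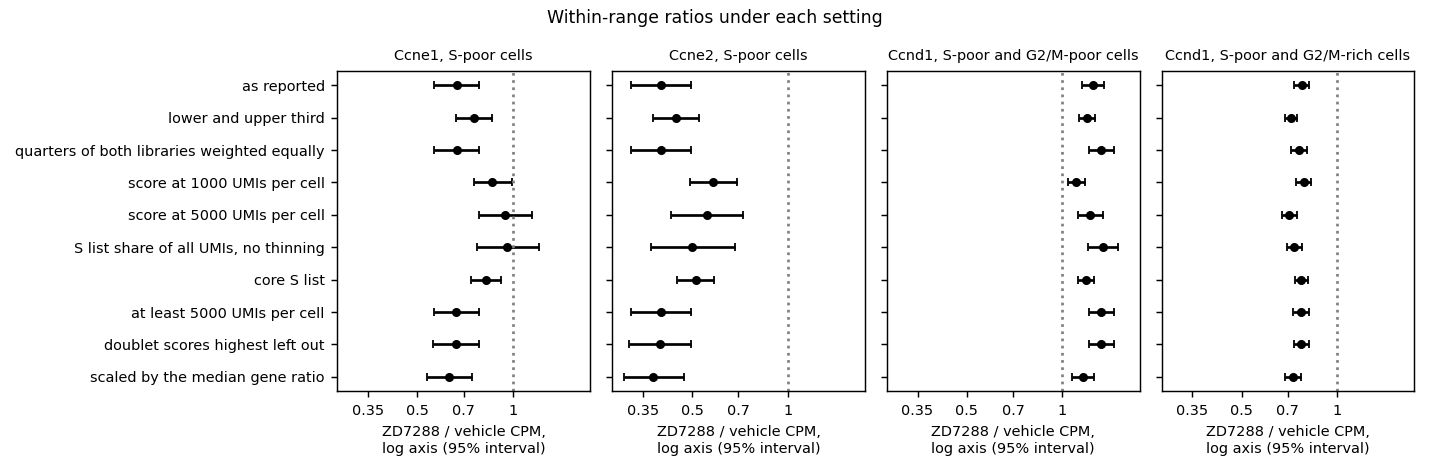
Ratio of ZD7288 to vehicle CPM within ranges, as reported and under 9 other settings of the ranges, the cells kept or the scaling, on a log axis with 95% intervals and a dotted line at 1. Ccne2 in S-poor cells stays between 0.378 and 0.583 under the other 9, whereas Ccne1 in S-poor cells reaches 0.959.

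The Ccne2 ratio in S-poor cells held its side of 1 under 9 other settings of the score ranges, the cells kept or the scaling, between 0.378 and 0.583 with all 9 intervals under 1. These settings were added for this ratio after seeing the data, and they are not independent checks. Limits set on both libraries weighted equally left the S-poor cells and the ratio as they were. Scaling by the median gene ratio kept the same 931 ZD7288 and 193 vehicle cells. With at least 5000 UMIs per cell the S-poor cells numbered 906 and 189. With the highest doublet scores left out they numbered 919 and 191. The Ccne1 ratio did not keep the 1.5-fold size. It was 0.943 (0.781 to 1.15) with the score taken at 5000 UMIs per cell and 0.959 (0.770 to 1.21) with the S list as a share of all UMIs of a cell. The Ccnd1 ratio under the same 9 lay between 1.10 and 1.34 in cells poor in both lists, and between 0.708 and 0.783 in S-poor and G2/M-rich cells.

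The genes around the members were described from 5 lists. Among the 6 measured of 17 pocket protein, E2F, DP and associated genes, 0 passed the 1.5-fold rule in either direction. Of all measured genes, 10.1% were higher and 5.20% lower. The log2 ratios of the 6 had a median of 0.03. Tfdp1, the DP partner of E2F factors, stood at 206.8 CPM in the ZD7288 library and 212.3 CPM in the vehicle library. Rbbp7, a histone-binding protein, stood at 397.4 CPM in the ZD7288 library and 284.0 CPM in the vehicle library, a ratio of 1.40 (1.36 to 1.45). E2f2, an activating E2F factor below 20 CPM and named after its values were seen, stood at 6.57 CPM in the ZD7288 library and 12.9 CPM in the vehicle library. Its S-rich over S-poor ratio was 8.67 (6.20 to 12.4) in the ZD7288 library and 2.47 (1.62 to 3.83) in the vehicle library. These rest on low levels in S-poor cells, 1.72 CPM in the ZD7288 library and 8.03 CPM in the vehicle library. Also under 20 CPM in both libraries, Rbl2 had a ratio of 0.487 (0.354 to 0.677) and E2f8 a ratio of 0.418 (0.272 to 0.651). The ratio intervals of Rb1, E2f3, E2f5, E2f7, Tfdp2, Lin9, Lin52 and Lin54, all under 20 CPM, held 1.

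Of 5 measured CDK inhibitor genes, 2 were higher and 0 lower, where 10.1% of all measured genes were higher and 5.20% lower. Their log2 ratios had a median of 0.20. Within the rule, Cdkn2c had a ratio of 0.7216 (0.6746 to 0.7725), Cdkn3 0.7438 (0.7157 to 0.7732) and Cdkn1b 1.151 (1.028 to 1.291). Under 20 CPM in both libraries, Cdkn1c had a ratio of 0.3842 (0.3196 to 0.4630) and Cdkn2a 1.516 (1.299 to 1.778). Cdkn2b, an inhibitor of Cdk4 and Cdk6, stood at 63.3 CPM in the ZD7288 library and 5.83 CPM in the vehicle library, a ratio of 10.9 (8.82 to 13.5). Within the ZD7288 library Cdkn2b was at 41.6 CPM in S-rich and 88.2 CPM in S-poor cells, a ratio of 0.471 (0.433 to 0.513). Within the vehicle library it was at 3.85 CPM in S-rich and 7.56 CPM in S-poor cells, a like ratio of 0.510 (0.251 to 0.983). Cdkn1a, an inhibitor of several cyclin-dependent kinases and a target of p53, stood at 195.7 CPM in the ZD7288 library and 56.4 CPM in the vehicle library, a ratio of 3.47 (3.24 to 3.72). Of 13 measured genes of CDK activation and cyclin turnover, 1 was higher and 0 lower, against 10.1% of all measured genes higher and 5.20% lower. The median of their log2 ratios was 0.30. The 1 gene was Cryab, a small heat shock protein reported as a cofactor in cyclin D1 turnover, at 20.5 CPM in the ZD7288 library and 6.15 CPM in the vehicle library. Of 12 measured other cyclin and CDK genes, 1 was higher and 1 lower, against the same 10.1% and 5.20% of all measured genes. Cdk17 had a ratio of 2.07 (1.85 to 2.32), and Ccng2, an atypical cyclin linked to cell cycle arrest, had a ratio of 0.614 (0.547 to 0.690).

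Among 19 measured other E2F target genes, 0 passed the rule in either direction between the whole libraries. Of all measured genes, 10.1% were higher and 5.20% lower there. The log2 ratios of the 19 had a median of -0.13. Mcm10, at 11.4 CPM in the ZD7288 library and 19.0 CPM in the vehicle library, lay just under the 20 CPM floor. Its ratio was 0.597 (0.522 to 0.684). The ratio intervals of Chaf1a, Pola2, Orc1 and Gins3, also under that floor, held 1. Ezh2, a histone methyltransferase, stood at 200.8 CPM in the ZD7288 library and 187.0 CPM in the vehicle library. Dut, which keeps uracil out of DNA, stood at 296.0 CPM in the ZD7288 library and 344.9 CPM in the vehicle library. Of the 19, 18 were higher in S-rich than in S-poor cells of the ZD7288 library, against 3.72% of all measured genes. In the vehicle library 16 of the 19 were higher, against 3.28% of all measured genes. Their median S-rich over S-poor ratios were 2.39 in the ZD7288 library and 1.68 in the vehicle library. The median ratio of ZD7288 to vehicle CPM was 1.03 in S-rich and 0.766 in S-poor cells, and 5 of the 19 were lower in S-poor cells, where 7.86% of all measured genes were lower.

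Genes with the most similar profiles were named by the smallest root mean square difference of centred log2 CPM over 8 points, which were 4 score ranges in each of the 2 libraries, among 4521 genes outside the members and both score lists. The points share libraries and depth, so this is a description. Ccnd1 lay closest to Col4a1, Zbed5 and Hagh, at 0.07 to 0.08, and Ccnd2 to Prdx3, B3galnt1 and Pls3, at 0.07 to 0.09. Prdx3 stood at 342.7 CPM in the ZD7288 library and 145.9 CPM in the vehicle library. Ccnd3 lay closest to Atg7, Malsu1 and Nipsnap3b, at 0.08 each, and Cdk4, which varied little, to Tecr, Naa10 and Fkbp3, at 0.03 to 0.04. Ccne1 lay closest to Timeless, at 0.09, then to Donson and Skp2. Cdk2 lay closest to Mcm7, Pold1 and Rpa1, at 0.16 to 0.17. Ccne2 had no near neighbour of that kind, with Cdt1 at 0.36, Necab3 at 0.46 and Timeless at 0.47.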

How the data were processed

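The authors deposited 1 matrix of raw UMI counts (25399 genes, 4691 cell barcodes of both libraries) made with Cell Ranger, per the submitters' processing notes, version 3.0.2 per the file headers. Barcodes were assigned to libraries by the number after the hyphen, matched to the number that opens each sample title, a match that sets the sign of every difference. Genome build, annotation and barcode filter: not given in the sources used here. Kept cells had at least 1000 UMIs, at least 500 genes and at most 10% mitochondrially encoded UMIs: 3135 of 3849 ZD7288 barcodes and 732 of 842 vehicle barcodes. Counts were summed per library or score range and scaled to 1000000 UMIs (CPM). A count of 0 allows 3 counts, 0.0407 CPM in the ZD7288 library and 0.192 CPM in the vehicle library. Genes with at least 20 CPM in the higher group counted as measured, and higher or lower means at least 1.5-fold. Shares of cells used cells thinned to 2000 UMIs, which left out 179 ZD7288 and 8 vehicle cells. Doublet scores against simulated doublets marked 79 ZD7288 and 4 vehicle cells (0.8% of a library per 1000 cells), which stayed in and were left out in an alternative. Members and lists were chosen with earlier results of these data known. Named genes were all members, per list up to 4 measured genes past 1.5-fold or else the 2 highest, and the 3 nearest profiles per measured member. E2f2 and the other list genes named under 20 CPM, with Cdkn1b, Cdkn1c, Cdkn2a, Cdkn2c and Cdkn3, lie outside this rule. They were named after their values were seen. Of 194 list symbols, 187 were matched. RefSeq tables (GRCr8) gave synonyms and start regions only. Calculations used Python 3.11.15, numpy 2.4.6, scipy 1.17.1, pandas 2.3.3 and scikit-learn 1.9.0, tested on simulated data.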

Additional observations from a re-analysis of the deposited data

Results flagged for a closer look

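The ratio of ZD7288 to vehicle CPM of Ccnd1 lay on opposite sides of 1 in different score ranges. It was 1.25 in cells poor in both the S and the G2/M list. It was 0.918 in S-rich cells, 0.863 in the S middle range, 0.772 in S-poor and G2/M-rich cells and 0.769 in S-poor and G2/M middle cells. Each of these 5 values compares 1 ZD7288 library with 1 vehicle library, and the difference between the ranges was not tested. The range with the value above 1 rested on 488 ZD7288 cells and 46 vehicle cells.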

How the results depend on the processing

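No paired analysis was possible because each group had 1 library. For the same reason no replicate could be left out. Of the recomputed counts, medians and shares that answer a comparison, 89 kept their value within the limits set for them and 2 did not. With a size rule of log2 0.32 in place of 1.5-fold, 1 member (Ccne2) was lower in the ZD7288 library, against 0 as reported. With every cell thinned to 2000 UMIs, the Ccnd1 share of D-type UMIs differed by -5.53 percentage points, against -6.77 as reported. Of values of single genes, 348 kept their place, 62 moved and 4 changed direction. The S-rich over S-poor log2 ratio of Rbl1 in the vehicle library, 1.22 as reported from 6 UMIs, was -0.0035 with ranges at tertiles and -0.55 with the score at 1000 UMIs. The log2 ratio of Ccne1 in cells poor in both lists, -1.04 as reported, was 0.0770 with the score at 5000 UMIs and 0.62 with the S list as a share of all UMIs, both added after seeing the data. The cause was not tested. The median log2 ratio of all genes was 0.09, and relative to it the members' median was -0.14. Depth limits Cdk6 and Rbl1, with 10 UMIs each in the vehicle library.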
